A study of Homo sapiens with 28 samples.

Results

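The genes of cholesterol synthesis and uptake described here are 27 of the 63139 genes in the count table, chosen by name as enzymes, regulators and transporters of the pathway. By role, 8 act in the early mevalonate pathway, 11 in the squalene and sterol steps, 4 in sterol sensing and control, and 4 in uptake and intracellular transport. The list does not hold every gene of the pathway, and it was chosen with earlier results of these data known. Shares of the list set beside shares of all tested genes are therefore descriptions only. They were measured by sequencing poly(A)-selected RNA from HepG2, a long-established cell line from a human liver tumour, in 28 libraries that form 7 groups of 4. The exposed groups received 0.5 µM cadmium chloride (CdCl2), 100 nM of the dioxin TCDD, 10 µM of the fluorinated surfactant PFOS, 75 µM bisphenol A (BPA) or 0.1 µM tributyltin chloride (TBTCl). Water was the vehicle of CdCl2, and DMSO was the vehicle of the other compounds. All 7 groups, vehicles included, spent 24 h without serum before 24 h of exposure, and the sources do not say whether serum was present during exposure. The replicates are labelled as 4 independent experiments, so the tests measure the spread between experiments in a single cell line.

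Total counts ran from 28.9 M to 66 M per library, and 3 counts corresponded to 0.0454 to 0.104 CPM (counts per 1000000 counts of a library), a floor that covers counting error only. Levels are CPM with TMM scaling, a correction for RNA composition. All 27 genes passed the filter on low counts and were tested among 18849 genes. ALB, the main plasma protein of hepatocytes, stood at 5950 to 24900 CPM in all 28 libraries. The labels of TCDD and PFOS used here are those after a correction noted by the submitters. CYP1A1, a known target of TCDD, reached at least 2841 CPM in every TCDD library, against at most 16.1 CPM in PFOS and at most 462 CPM in any library outside TCDD. TBTCl replicate 4 stood apart from the other TBTCl libraries in many of the genes described here. Results that involve TBTCl include it, and for part of them values without it are also given. INSIG1 had 4 to 42 counts per library, while every other gene of the list had far more, so its values are the least certain.

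Cholesterol is built from acetyl-CoA through mevalonate and farnesyl diphosphate to squalene, which is closed to lanosterol and trimmed to cholesterol. When sterols are scarce, the escort protein SCAP carries the membrane-bound transcription factor SREBP-2, the product of SREBF2, from the endoplasmic reticulum to the Golgi. There SREBP-2 is cut, and its freed part enters the nucleus and switches on genes of synthesis and uptake. When sterols are plentiful, the INSIG proteins hold SCAP and SREBP-2 in the endoplasmic reticulum. The liver is a main site of both synthesis and clearance of cholesterol.

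Promoter sequences are shown because SREBP-2 is known to act at sterol regulatory elements together with the factors NF-Y and Sp1. RefSeq promoter windows on GRCh38.p14, from 250 bases before to 50 bases after a gene's start, were at hand for 24 of the 27 genes, in 33 windows. The stretches printed are the 150 bases before the start for genes with a single window whose change against DMSO held in every alternative, and for SREBF2. They are written 5′ to 3′ on the gene's own strand. Capitals mark matches, on either strand, to the sterol regulatory element TCACNCCAC, to the NF-Y motif CCAAT, which reads ATTGG on the other strand, or to the Sp1 motif GGGCGG, which reads CCGCCC on the other strand. In NSDHL the run CCAATTGG holds overlapping matches on both strands.
FDPS, chr1:155308716-155308865, plus strand: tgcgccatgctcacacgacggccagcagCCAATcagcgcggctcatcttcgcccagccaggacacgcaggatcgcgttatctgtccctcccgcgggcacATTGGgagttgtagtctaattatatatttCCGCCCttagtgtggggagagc
LSS, chr21:46228775-46228924, minus strand: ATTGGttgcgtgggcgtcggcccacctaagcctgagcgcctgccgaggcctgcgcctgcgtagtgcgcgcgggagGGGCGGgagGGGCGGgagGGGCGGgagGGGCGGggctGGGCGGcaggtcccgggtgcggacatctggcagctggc
TM7SF2, chr11:65111722-65111871, plus strand: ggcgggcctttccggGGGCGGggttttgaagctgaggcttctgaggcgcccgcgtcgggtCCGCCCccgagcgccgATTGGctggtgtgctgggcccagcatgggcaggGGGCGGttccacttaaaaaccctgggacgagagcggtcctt
NSDHL, chrX:152830913-152831062, plus strand: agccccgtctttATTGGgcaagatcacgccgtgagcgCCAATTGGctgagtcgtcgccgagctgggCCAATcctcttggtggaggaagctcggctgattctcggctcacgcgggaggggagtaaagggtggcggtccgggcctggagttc
HSD17B7, chr1:162790552-162790701, plus strand: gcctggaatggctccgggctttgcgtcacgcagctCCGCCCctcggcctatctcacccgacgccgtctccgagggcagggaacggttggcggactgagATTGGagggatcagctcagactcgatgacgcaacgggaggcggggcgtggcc
SREBF2, chr22:41832955-41833104, plus strand: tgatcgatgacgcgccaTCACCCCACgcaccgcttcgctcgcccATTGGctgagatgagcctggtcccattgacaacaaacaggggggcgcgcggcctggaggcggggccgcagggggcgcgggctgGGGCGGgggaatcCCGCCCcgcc
STARD4, chr5:111512536-111512685, minus strand: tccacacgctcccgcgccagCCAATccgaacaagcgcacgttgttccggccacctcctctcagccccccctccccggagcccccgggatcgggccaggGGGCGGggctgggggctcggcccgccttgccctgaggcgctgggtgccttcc
NPC1, chr18:23586507-23586656, minus strand: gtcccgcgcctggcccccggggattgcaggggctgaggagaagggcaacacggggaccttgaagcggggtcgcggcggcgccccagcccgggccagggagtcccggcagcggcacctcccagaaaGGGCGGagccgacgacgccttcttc

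The sterol regulatory element in this strict spelling was found in the window of 1 of 24 genes, SREBF2 itself (4.17%), against 1.39% of the 27305 genes with a window. CCAAT was found in 19 of 24 (79.2%), against 39.7% of all genes with a window, and GGGCGG in 22 of 24 (91.7%), against 48.3%. The E-box CACGTG, a palindrome, was found in 4 of 24 (16.7%), against 8.77%. Counted by window, CCAAT was in 21 of 33 windows of the list and in 34.6% of all 35116 windows. LSS carried 5 copies of GGGCGG in its printed stretch, NSDHL carried 4 copies of CCAAT and no GGGCGG, and NPC1 carried 1 GGGCGG and no CCAAT. A match describes the letters in this window and is not evidence of binding, and a window without a match says nothing about the factor.

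**Figure D1:**
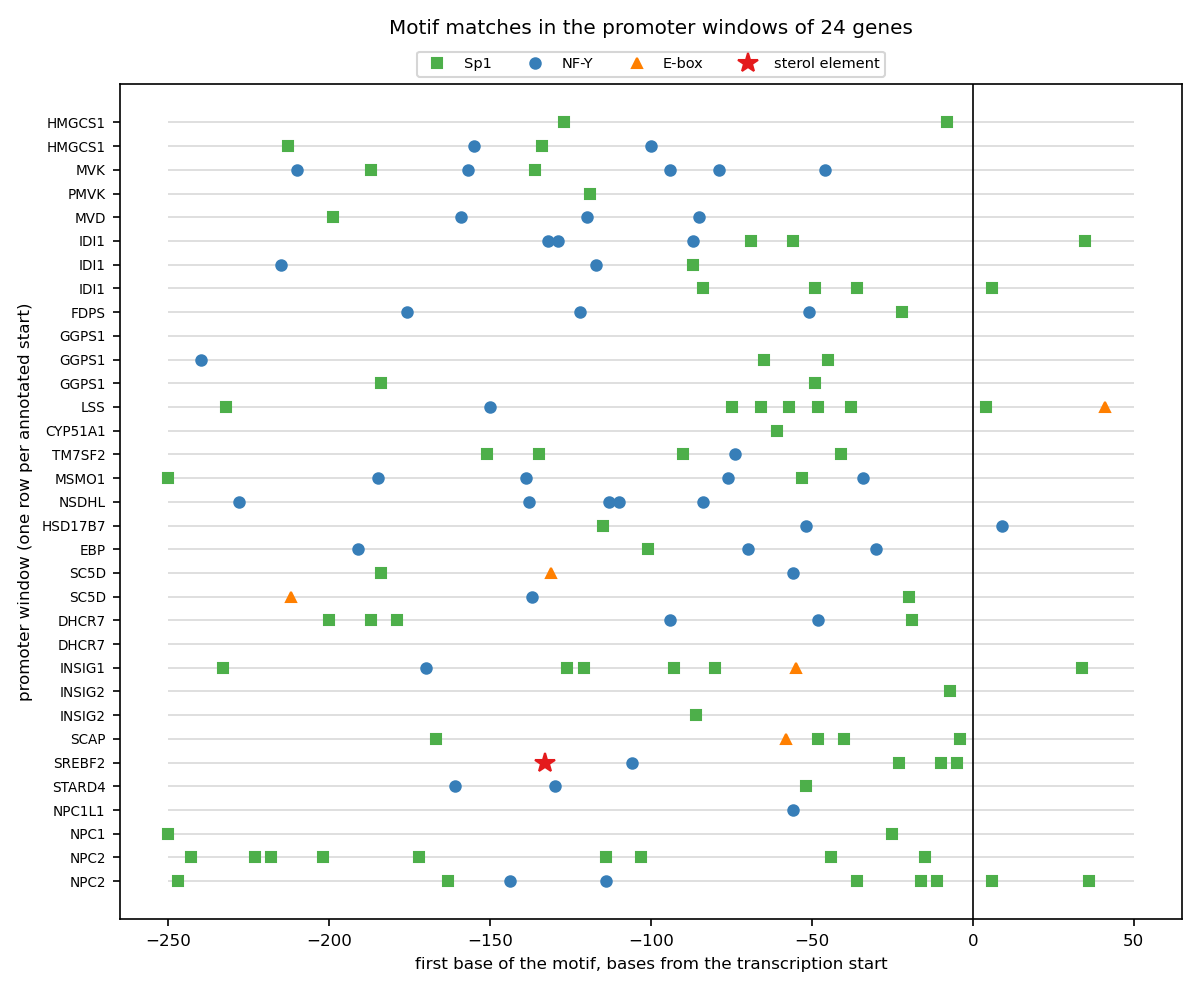
Positions of 4 motifs in the 33 promoter windows of 24 genes, 1 row per annotated start, with the first base of each motif given in bases from the transcription start. The single sterol element (star) lies in SREBF2 at -133, while Sp1 squares and NF-Y circles occur in most rows.

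Within the DMSO libraries the levels spanned a wide range. Per kilobase of exon, FDPS (173 CPM per kb), FDFT1 (162), DHCR7 (128), HMGCS1 (114) and ACAT2 (112) stood highest. GGPS1 (3.19 CPM per kb) and INSIG1 (0.0981) stood lowest, and the other 20 genes lay between 10.1 and 87.7 CPM per kb. The spread among the 4 DMSO libraries differed by gene, with a coefficient of variation of 3.75% for HSD17B7, 4.12% for IDI1, 28.3% for HMGCS1, 36.2% for CYP51A1 and 55.7% for INSIG1. The summed level of the 27 genes was highest in replicate 4 in 6 of 7 groups, and in BPA it was highest in replicate 2. Group means of that sum were 5172 ± 651 CPM in CdCl2 and 6236 ± 859 in water (SD, n = 4 each). They were 4650 ± 296 CPM in TCDD, 5793 ± 589 in PFOS, 4778 ± 646 in BPA, 6551 ± 1040 in TBTCl and 6156 ± 729 in DMSO.

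**Figure D2:**
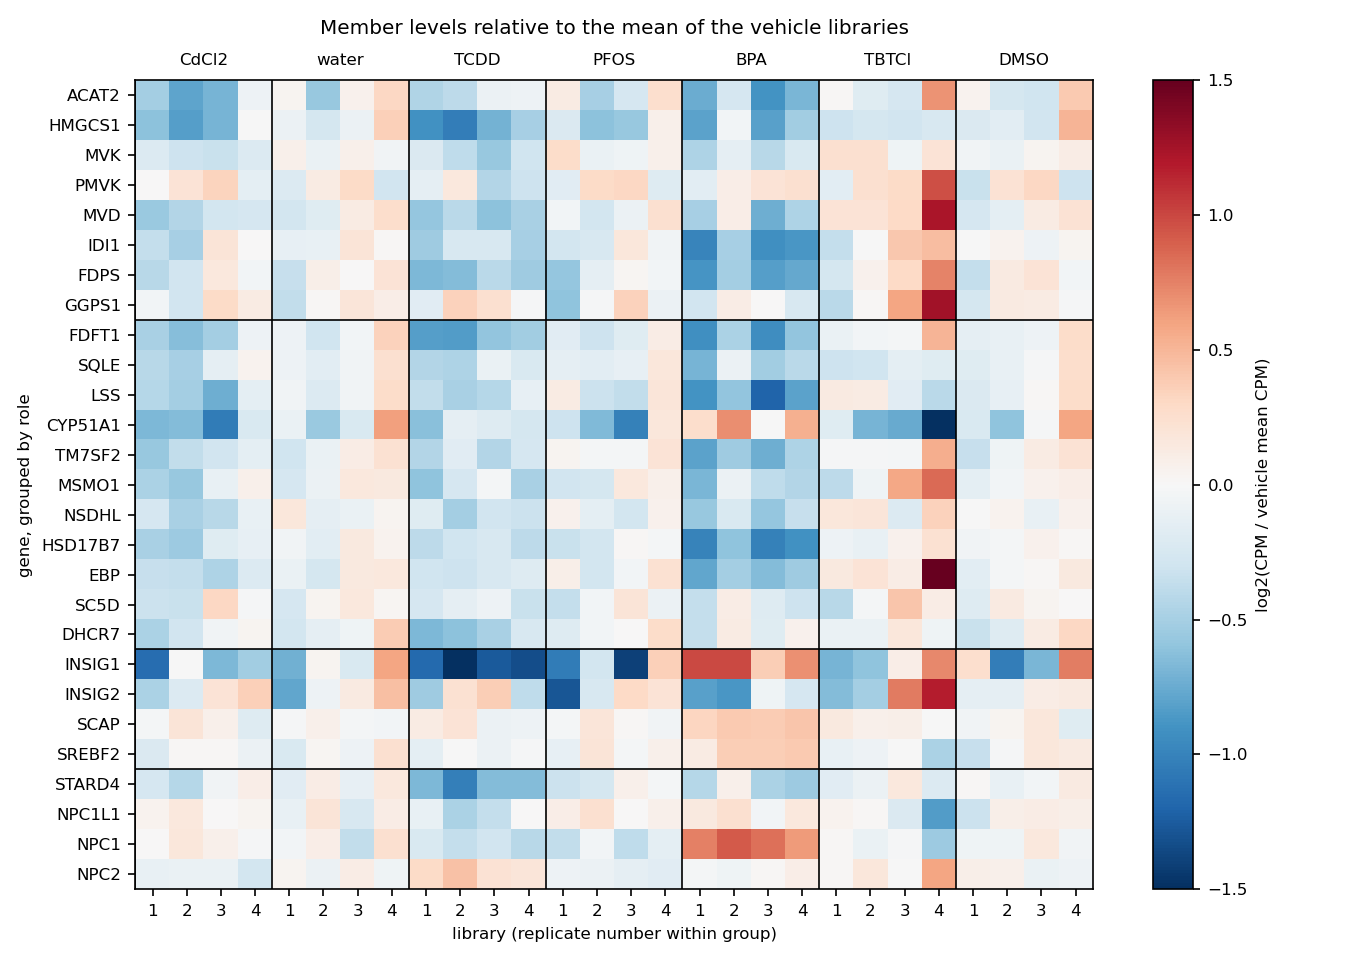
Level of each of the 27 genes (rows, by role) in each of the 28 libraries (columns), as log2 of CPM over the mean of the vehicle libraries (water for CdCl2 and water, DMSO for the rest), with colours capped at 1.5 in both directions. Synthesis genes are mostly blue in TCDD and BPA, NPC1, SCAP and SREBF2 are red in BPA, and TBTCl replicate 4 differs from its group.

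BPA lowered enzymes at many steps of the synthesis route and raised SCAP, SREBF2 and the transporter gene NPC1. By edgeR's quasi-likelihood test with Benjamini-Hochberg adjustment over all tested genes, 11 of the 27 genes fell and 3 rose relative to DMSO. Among all tested genes 17.6% fell and 17.3% rose in the same comparison, and these shares are given as a description: the share of the 27 that fell was above that background and the share that rose was not. An unadjusted p under 0.05 was found for 17 of the 27, against 44.4% of all tested genes. In 9 genes every BPA library was below every DMSO library (17.1% of all tested genes), and in 2 every BPA library was above (20.1%). The median log2 fold change was -0.36 over the 27 genes and -0.02 over all tested genes. With upper-quartile scaling, which moved the median of all genes to -0.15 and the split of all genes to 2239 higher and 4345 lower, 2 of the 27 genes rose and 13 fell. Library-size scaling gave 2 and 15 (all genes 2169 and 4321, median -0.14). In bulk RNA, fewer cells that express a gene and less of its RNA per cell cannot be told apart.

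Markers of other states moved with BPA. All 7 cycling-cell markers fell, with a summed level of 238 to 438 CPM in BPA and 688 to 1470 CPM in DMSO. Of 7 hepatocyte-lineage markers 3 fell and 1 rose, with a summed level of 16900 to 29600 CPM in BPA and 24000 to 48800 CPM in DMSO. Of 9 leukocyte, endothelial and stromal markers 6 were tested and 2 fell, LYZ and PECAM1, with a summed level of 715 to 1530 CPM in BPA and 1930 to 2530 CPM in DMSO, most of it LYZ. The leukocyte gene PTPRC had 0 counts in all BPA and DMSO libraries. The part of these markers in the results on the 27 genes was not tested.

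In the early mevalonate pathway 4 of 8 genes fell under BPA, against 17.6% of all tested genes. IDI1, which makes the reactive isomer of the isoprene unit, stood at 114, 160, 120 and 124 CPM in BPA, against 225, 234, 214 and 233 CPM in DMSO. Every BPA library was below every DMSO library (log2 fold change -0.81 ± 0.16 SE, adjusted p = 0.000456). FDPS, which builds farnesyl diphosphate, averaged 385 ± 45.3 CPM in BPA and 643 ± 106 CPM in DMSO (-0.74 ± 0.18, adjusted p = 0.0025), without overlap. MVK, the kinase that first phosphorylates mevalonate, fell by 0.30 on the log2 scale (adjusted p = 0.023). ACAT2, the thiolase that joins acetyl-CoA units, fell by 0.62 (adjusted p = 0.0303), with BPA replicate 2, at 405 CPM, above 2 DMSO libraries. HMGCS1, the cytosolic HMG-CoA synthase, averaged 378 ± 102 CPM in BPA and 536 ± 152 CPM in DMSO (-0.51 ± 0.21, adjusted p = 0.0587). MVD, the decarboxylase that forms the isoprene unit, gave -0.36 (adjusted p = 0.158). The kinase gene PMVK (0.11) and GGPS1, which extends farnesyl to geranylgeranyl diphosphate (-0.09), lay nearest to no difference, with 95% intervals of -0.31 to 0.52 and -0.59 to 0.40.

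Of the 11 genes of the squalene and sterol steps, 7 fell under BPA, against 17.6% of all tested genes. HSD17B7, the keto-sterol reductase that works in the removal of methyl groups, had the smallest p of the list. It stood at 30.4, 39.9, 30.1 and 32.4 CPM in BPA, against 58.6, 59.5, 63.7 and 61.6 CPM in DMSO (log2 fold change -0.87 ± 0.11 SE, adjusted p = 2.61e-06). The highest BPA library lay well below the lowest DMSO library. LSS, the cyclase that forms lanosterol, stood at 200, 246, 161 and 212 CPM in BPA, against 319, 341, 375 and 450 CPM in DMSO. These groups were also fully separated (-0.86 ± 0.16, adjusted p = 0.000257). FDFT1, squalene synthase, fell by 0.71 (adjusted p = 0.00143), and TM7SF2, a sterol reductase, fell by 0.63 (adjusted p = 0.00137). EBP, a sterol isomerase, fell by 0.61 (adjusted p = 0.0335), NSDHL, a dehydrogenase of the demethylation step, by 0.42 (adjusted p = 0.00719), and SQLE, squalene epoxidase, by 0.41 (adjusted p = 0.0253).

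Among the 4 sterol-step genes that were not called in BPA, MSMO1, the oxygenase that opens the demethylation step, gave -0.38 (adjusted p = 0.15) and SC5D, a desaturase, gave -0.17 (adjusted p = 0.423). DHCR7, the reductase of the last step, averaged 505 ± 76.2 CPM in BPA and 533 ± 107 CPM in DMSO, with an interval of -0.41 to 0.25. CYP51A1, lanosterol demethylase, stood at 43.4, 58.6, 36.0 and 52.3 CPM in BPA, against 30.7, 23.8, 35.6 and 54.3 CPM in DMSO (0.40 ± 0.32, adjusted p = 0.351). It was the only gene of this role with a positive estimate, and its groups overlapped.

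Of the 4 sensing and control genes 2 were called higher in BPA, against 17.3% of all tested genes, and INSIG2 had a negative estimate. Of these calls, that of SREBF2 was lost in 9 of 15 alternatives. SCAP, the escort of SREBP-2, stood at 173, 181, 180 and 184 CPM in BPA, against 133, 142, 156 and 122 CPM in DMSO, without overlap (log2 fold change 0.38 ± 0.10 SE, adjusted p = 0.00336). SREBF2 stood at 334, 397, 395 and 402 CPM in BPA, against 242, 302, 345 and 338 CPM in DMSO. Here 3 of 4 BPA libraries were above every DMSO library, and BPA replicate 1 lay within the DMSO range (0.32 ± 0.12, adjusted p = 0.0453). INSIG1, a retention protein that is itself a target of SREBP-2, stood at 0.709, 0.712, 0.464 and 0.578 CPM in BPA, against 0.426, 0.175, 0.223 and 0.608 CPM in DMSO (0.79 ± 0.38, adjusted p = 0.105). INSIG2, its more slowly turned over relative, stood at 59.8, 57.7, 101 and 88.2 CPM in BPA, against 95.6, 95.5, 114 and 116 CPM in DMSO (-0.46 ± 0.35, adjusted p = 0.326). BPA replicates 1, 2 and 4 were below every DMSO library, and replicate 3 was not.

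Among the transport genes NPC1, which exports cholesterol from late endosomes and lysosomes, rose under BPA. It stood at 243, 272, 255 and 223 CPM in BPA, against 137, 138, 161 and 139 CPM in DMSO (log2 fold change 0.79 ± 0.12 SE, adjusted p = 2.88e-05). All BPA libraries lay above all other libraries of the study for this gene. Its partner NPC2, which hands cholesterol to NPC1 inside the lysosome, averaged 78.0 ± 4.06 CPM in BPA and 77.6 ± 5.31 CPM in DMSO, with an interval of -0.21 to 0.22. NPC1L1, a sterol uptake transporter of the cell surface, stood at 82.0, 87.5, 72.1 and 82.4 CPM in BPA, against 59.1, 78.6, 79.8 and 78.3 CPM in DMSO (0.13 ± 0.15, adjusted p = 0.518). STARD4, a cytosolic sterol carrier, gave -0.32 (adjusted p = 0.0728), with BPA replicate 2, at 60.9 CPM, above the other BPA libraries at 39.6 to 43.2 CPM.

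The calls for IDI1, FDPS, FDFT1, LSS, TM7SF2, NSDHL, HSD17B7 and NPC1 held in all 15 alternatives. Other calls were lost when 1 library was left out, and whether that library or the smaller group was the cause was not tested. Over the fits without 1 library, log2 fold changes ran from -0.78 to -0.46 for ACAT2 and from -0.37 to -0.26 for MVK. For SQLE they ran from -0.54 to -0.30 and for EBP from -0.66 to -0.56. ACAT2 lost its call without DMSO replicate 1 or 4 or BPA replicate 1, 3 or 4 (adjusted p up to 0.134), MVK without DMSO replicate 3 or 4, BPA replicate 1 or 3 or the filter on low counts (up to 0.116), and SQLE without DMSO replicate 4 or BPA replicate 1 or 3 (up to 0.118). EBP lost its call without any library but DMSO replicate 1 and BPA replicate 4 (up to 0.0885). The count of genes that fell was 7 without DMSO replicate 4, without BPA replicate 1 or without BPA replicate 3, and 13 without BPA replicate 2. SREBF2 lost its call without any 1 of DMSO replicates 1 and 2 and BPA replicates 2, 3 and 4, under upper-quartile and library-size scaling, without a filter on low counts and in a fit to the 8 libraries compared (adjusted p up to 0.24 over its alternatives). SCAP was called in all alternatives but the one without a filter on low counts (adjusted p = 0.0811). Same-numbered BPA and DMSO libraries deviated together, and in a fit with a replicate block HMGCS1 (adjusted p = 0.0199) and MSMO1 (0.0472) also fell and INSIG1 (0.0325) rose. Calls over all tested genes grew with the block as well, to 21.4% lower and 21.4% higher, from 17.6% and 17.3%.

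Some annotated neighbours bear on these values, because it is unknown whether the counting used strand. In GENCODE release 29, 15 of the 27 genes are overlapped by a gene on the opposite strand. TCP1, opposite ACAT2, stood at 91.9% of ACAT2's level in DMSO and gave -0.09 under BPA (adjusted p = 0.673). MMAB, opposite MVK, stood at 78.6% of MVK's level and fell under BPA (-0.54, adjusted p = 0.0113), as MVK did (-0.30). ARID4B, opposite GGPS1, stood at 292% of GGPS1's level. VPS51, on the strand of TM7SF2, stood at 71.5% of the level of TM7SF2 and rose under BPA (0.81, adjusted p = 0.00589) while TM7SF2 fell. RMC1, opposite NPC1, stood at 8.77% of NPC1's level and rose (0.71, adjusted p = 0.000144). The antisense transcripts of IDI1, FDPS, SREBF2 and STARD4 stood at 5.7% of the gene's level or less and were lower in BPA. Pseudogenes named after FDPS (8), CYP51A1 (3) and HSD17B7 (2) are annotated, so that reads of these genes may have been divided. The part of these neighbours and copies in the results was not tested.

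**Figure D3:**
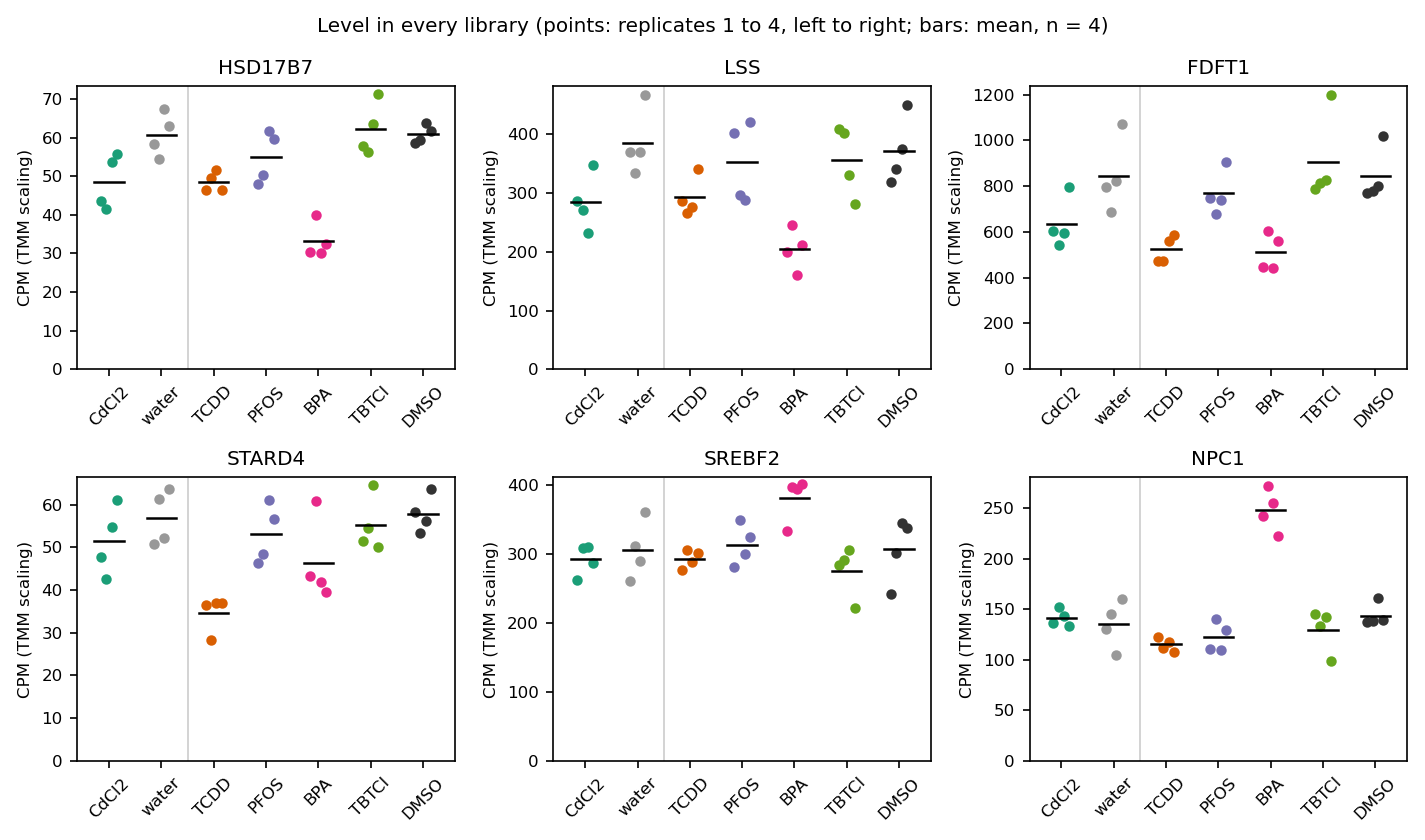
CPM with TMM scaling of 6 genes in every library, with points for replicates 1 to 4 and a bar for the mean of 4 libraries. HSD17B7 and LSS are lowest in BPA, FDFT1 is low in both TCDD and BPA, STARD4 is lowest in TCDD, and SREBF2 and NPC1 are highest in BPA, where NPC1 stands at 223 to 272 CPM.

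TCDD lowered 6 of the 27 genes and raised none that passed the test, in a comparison in which 2.8% of all tested genes fell and 6.45% rose. As a description, the share of the 27 that fell was above that background and the share that rose was below it. The median log2 fold change of the list was -0.32, against -0.01 over all tested genes, and 24 of 27 estimates were negative. An unadjusted p under 0.05 was found for 16 of the 27, against 21% of all tested genes. In 12 genes every TCDD library was below every DMSO library, which held for 5.95% of all tested genes. The reverse held for 1 gene, NPC2, and for 9.38% of all tested genes. Under TCDD 0 of 7 cycling markers were called, with a summed level of 640 to 1290 CPM in TCDD and 688 to 1470 CPM in DMSO. The hepatocyte markers summed to 17800 to 34900 CPM in TCDD and 24000 to 48800 CPM in DMSO, with 0 of 7 called, all 7 estimates negative and a median log2 fold change of -0.38, and PDGFRB was the 1 stromal marker that fell. The part of these markers in the results was not tested.

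STARD4, the sterol carrier, had the smallest p. It stood at 36.4, 28.4, 36.9 and 36.9 CPM in TCDD, against 58.4, 53.5, 56.1 and 63.7 CPM in DMSO (log2 fold change -0.74 ± 0.14 SE, edgeR adjusted p = 0.000507). All 4 TCDD libraries lay below the libraries of every other group. FDFT1, squalene synthase, stood at 475, 473, 561 and 588 CPM in TCDD, against 769, 781, 800 and 1020 CPM in DMSO, without overlap (-0.68 ± 0.16, adjusted p = 0.00577). HMGCS1, the HMG-CoA synthase, stood at 285, 262, 327 and 380 CPM in TCDD, against 463, 480, 440 and 763 CPM in DMSO. Its TCDD libraries were all lower, and DMSO replicate 4 was far above the other DMSO libraries (-0.78 ± 0.21, adjusted p = 0.0154). MVK, mevalonate kinase, stood at 71.1, 63.6, 55.6 and 67.0 CPM in TCDD, against 79.4, 77.4, 84.8 and 88.9 CPM in DMSO (-0.36 ± 0.10, adjusted p = 0.0227). FDPS, the farnesyl diphosphate synthase, averaged 436 ± 37.9 CPM in TCDD and 643 ± 106 CPM in DMSO (-0.56 ± 0.18, adjusted p = 0.0484).

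By role, 3 of 8 early mevalonate genes, 1 of 11 squalene and sterol genes, 1 of 4 control genes and 1 of 4 transport genes fell under TCDD. Among all tested genes 2.8% fell. All 11 estimates of the squalene and sterol steps were negative, with a median of -0.32, though FDFT1 alone passed. DHCR7, the last reductase, gave -0.49 (adjusted p = 0.0525), HSD17B7 gave -0.33 (adjusted p = 0.0745) and NSDHL gave -0.32 (adjusted p = 0.0956). In HSD17B7 and NSDHL every TCDD library was nevertheless below every DMSO library. MVD gave -0.52 (adjusted p = 0.109) and IDI1 gave -0.37 (adjusted p = 0.182), also without overlap.

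INSIG1 had few counts in TCDD, at 0.159, 0.0972, 0.149 and 0.142 CPM, against 0.426, 0.175, 0.223 and 0.608 CPM in DMSO (-1.39 ± 0.44, adjusted p = 0.0422). RefSeq places other transcripts, INSIG1-DT and LOC105375592, over its span. How reads shared with them were counted is not known, so the printed INSIG1 levels and calls may not cover all of its reads. INSIG2 stood at 72.9, 123, 136 and 80.8 CPM in TCDD, against 95.6, 95.5, 114 and 116 CPM in DMSO, where TCDD libraries lay on both sides of the DMSO range (-0.03 ± 0.35). SREBF2 stood at 277, 306, 288 and 302 CPM in TCDD, inside the DMSO range of 242 to 345 CPM, with an interval of -0.31 to 0.19. SCAP, the escort, averaged 143 ± 14.9 CPM in TCDD and 138 ± 14.4 CPM in DMSO.

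Besides STARD4, no transport gene was called in TCDD. NPC1 averaged 115 ± 6.57 CPM in TCDD and 144 ± 11.6 CPM in DMSO (-0.32 ± 0.12, adjusted p = 0.114), and NPC2 averaged 94.3 ± 7.49 CPM in TCDD and 77.6 ± 5.31 CPM in DMSO (0.28 ± 0.10, adjusted p = 0.0975). The lysosomal partners thus had estimates of opposite sign, each without overlap between the groups. NPC1L1, the surface transporter, stood at 68.4, 53.2, 57.7 and 74.0 CPM in TCDD, against 59.1, 78.6, 79.8 and 78.3 CPM in DMSO (-0.22 ± 0.15, adjusted p = 0.42).

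The calls of FDFT1 and STARD4 held in all 15 alternatives for TCDD, and the other 4 did not. Without DMSO replicate 4, or without TCDD replicate 2, 2 genes were called lower, and without TCDD replicate 3 there were 3. Without DMSO replicate 4 HMGCS1 gave -0.56 (adjusted p = 0.1), MVK -0.33 (0.0772), FDPS -0.58 (0.0669) and INSIG1 -0.95 (0.231). FDPS and INSIG1 also lost their calls without any single TCDD library. Calls were also lost without other single DMSO libraries, replicate 1 for INSIG1, replicate 2 for FDPS and replicate 3 for MVK and FDPS.

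**Figure D4:**
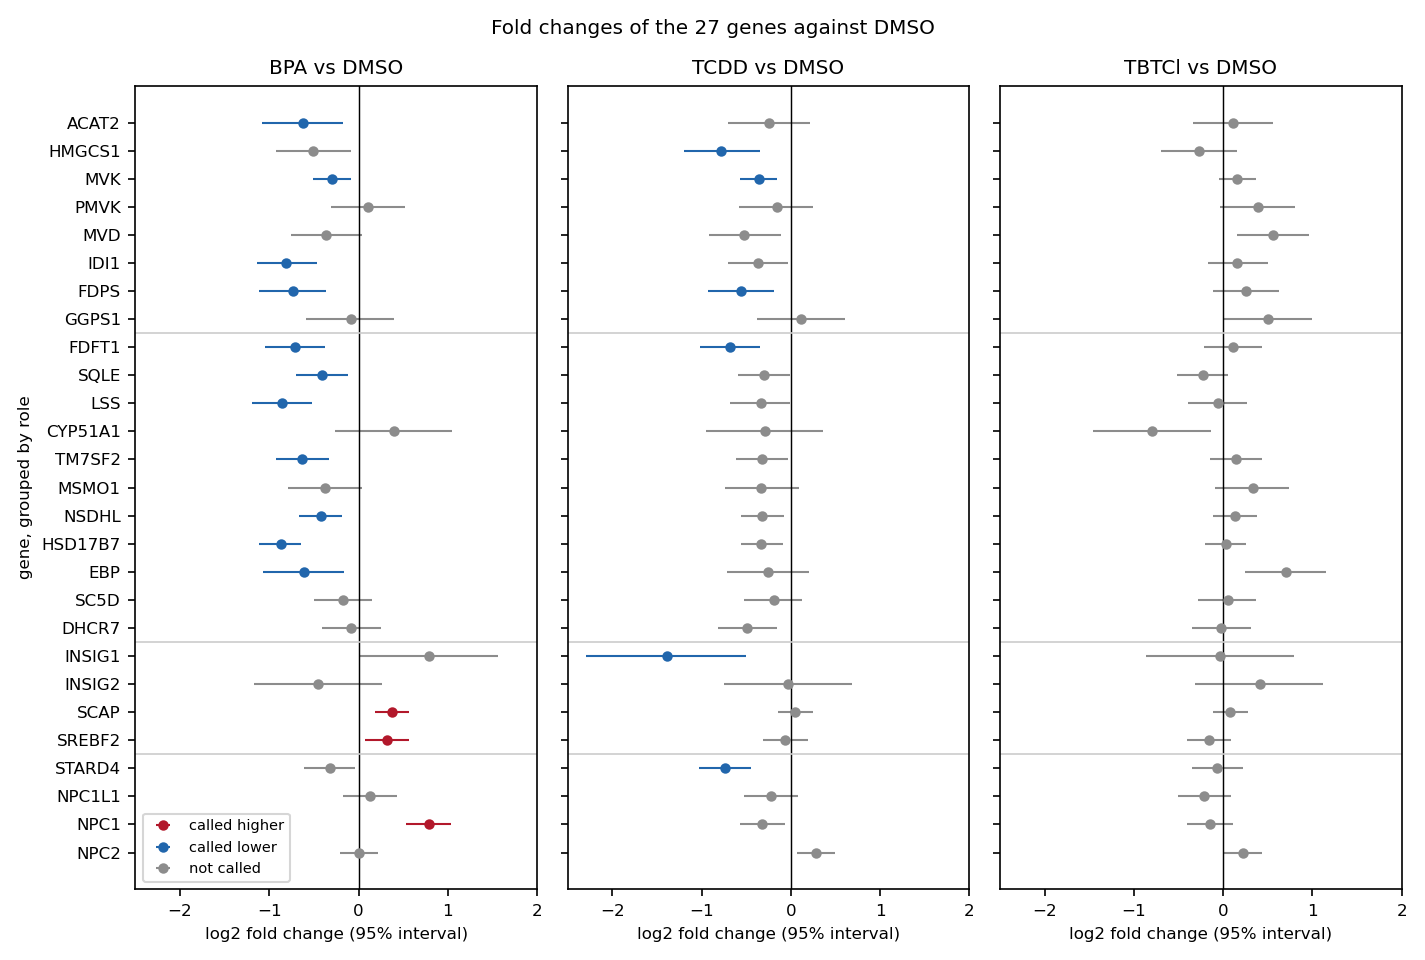
Log2 fold changes against DMSO of the 27 genes (rows, by role) for BPA, TCDD and TBTCl, with points for the edgeR estimate and bars for its 95% interval. BPA has 11 genes called lower and 3 called higher, TCDD has 6 called lower, and TBTCl has none called. The 3 panels share the DMSO libraries.

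The BPA and TCDD changes share their DMSO libraries, so the compounds were also set against each other directly. Between BPA and TCDD, 6 of the 27 genes were higher in BPA and 4 were lower by edgeR, against 17.8% higher and 20.4% lower among all tested genes. These shares are close to the background. Every BPA library was above every TCDD library in 6 genes, against 20.3% of all tested genes, and below in 5, against 19.9%. NPC1, the lysosomal exporter, stood at 243, 272, 255 and 223 CPM in BPA, against 123, 112, 118 and 108 CPM in TCDD (log2 fold change 1.11 ± 0.12 SE, adjusted p = 1.46e-07). For this gene BPA and TCDD had estimates of opposite sign against DMSO. INSIG1 stood at 0.464 to 0.712 CPM in BPA, against 0.0972 to 0.159 CPM in TCDD, a difference that rests on few counts (2.18 ± 0.43, adjusted p = 0.000252). HSD17B7, the keto-sterol reductase, stood at 30.4, 39.9, 30.1 and 32.4 CPM in BPA, against 46.5, 49.6, 51.7 and 46.5 CPM in TCDD (-0.55 ± 0.11, adjusted p = 0.000502). SCAP stood at 173, 181, 180 and 184 CPM in BPA, against 151, 160, 130 and 131 CPM in TCDD (0.33 ± 0.09, adjusted p = 0.00831). In these 4 genes no BPA library overlapped with a TCDD library. All 7 cycling-cell markers were lower in BPA than in TCDD (median -1.63), and of 7 hepatocyte markers 3 were lower and 1 was higher (median -0.41), a part in the result that was not tested.

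SREBF2 (0.38, adjusted p = 0.0153), STARD4 (0.42, adjusted p = 0.0185) and DHCR7 (0.42, adjusted p = 0.0425) were also higher in BPA than in TCDD. LSS (-0.51, adjusted p = 0.0145), IDI1 (-0.44, adjusted p = 0.0335) and NPC2 (-0.27, adjusted p = 0.0391) were lower. For FDFT1, low in both compounds, the difference was -0.03 with an interval of -0.36 to 0.30, and for MVK it was 0.06 with an interval of -0.15 to 0.27. For HMGCS1 the interval was -0.16 to 0.69 and for FDPS -0.55 to 0.19. The split changed with scaling, to 2 higher and 5 lower with upper-quartile factors (median of all genes -0.18) and to 3 and 5 with library size alone. Only HSD17B7, INSIG1 and NPC1 kept their calls in all 14 alternatives of this comparison. LSS lost its call without TCDD replicate 4 or BPA replicate 3, STARD4 without TCDD replicate 2 or BPA replicate 2, and IDI1, DHCR7 and NPC2 each without any of 5 libraries. The count of lower genes was 2 without TCDD replicate 2 or BPA replicate 1, and 1 without BPA replicate 3. The higher genes numbered 4 to 7 over these fits, lowest without TCDD replicate 2 or BPA replicate 2.

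TBTCl changed none of the 27 genes relative to DMSO by edgeR (0 higher and 0 lower), where 0.106% of all tested genes were called higher and 0.0371% lower. DESeq2 called 0 as well, and 5 of the 27 had an unadjusted p under 0.05, as did 15.6% of all tested genes. In none of the 27 did the groups separate, which happened with TBTCl above in 2.26% and below in 2.61% of all tested genes. Their median log2 fold change was 0.11, against 0.01 over all tested genes. TBTCl replicate 4 lay outside the DMSO range in 22 of the 27 genes, and the other TBTCl libraries in 9 to 11. EBP, the sterol isomerase, stood at 50.2, 52.3, 49.0 and 144 CPM in TBTCl, against 40.8, 44.5, 46.1 and 50.4 CPM in DMSO (0.70 ± 0.22, adjusted p = 0.156), and without TBTCl replicate 4 the estimate was 0.15. MVD, the decarboxylase, stood at 462, 462, 492 and 933 CPM in TBTCl, against 337, 361, 435 and 466 CPM in DMSO (0.56 ± 0.20, adjusted p = 0.187), and 0.24 without that library. CYP51A1, lanosterol demethylase, gave -0.80 with that library, where it had 7.34 CPM, and -0.52 without it.

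In TBTCl replicate 4 FDPS (1080 CPM), FDFT1 (1200), TM7SF2 (174), PMVK (49.6), GGPS1 (29.2) and INSIG2 (238) exceeded every other library of the study. NPC1L1 (41.5 CPM) and NPC1 (98.9) were lower there than in any other library. Of the control genes, INSIG1 stood at 0.221, 0.236, 0.384 and 0.592 CPM and INSIG2 at 67.2, 74.1, 180 and 238 CPM in TBTCl, against 0.175 to 0.608 CPM and 95.5 to 116 CPM in DMSO. SREBF2 stood at 284, 291, 306 and 221 CPM in TBTCl, against 242, 302, 345 and 338 CPM in DMSO (-0.16 ± 0.12). NPC1L1 stood at 76.7, 74.7, 63.4 and 41.5 CPM in TBTCl, against 59.1, 78.6, 79.8 and 78.3 CPM in DMSO (-0.21 ± 0.15). Without replicate 4 the estimates of SREBF2 and NPC1L1 were -0.06 and -0.05.

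**Figure D5:**
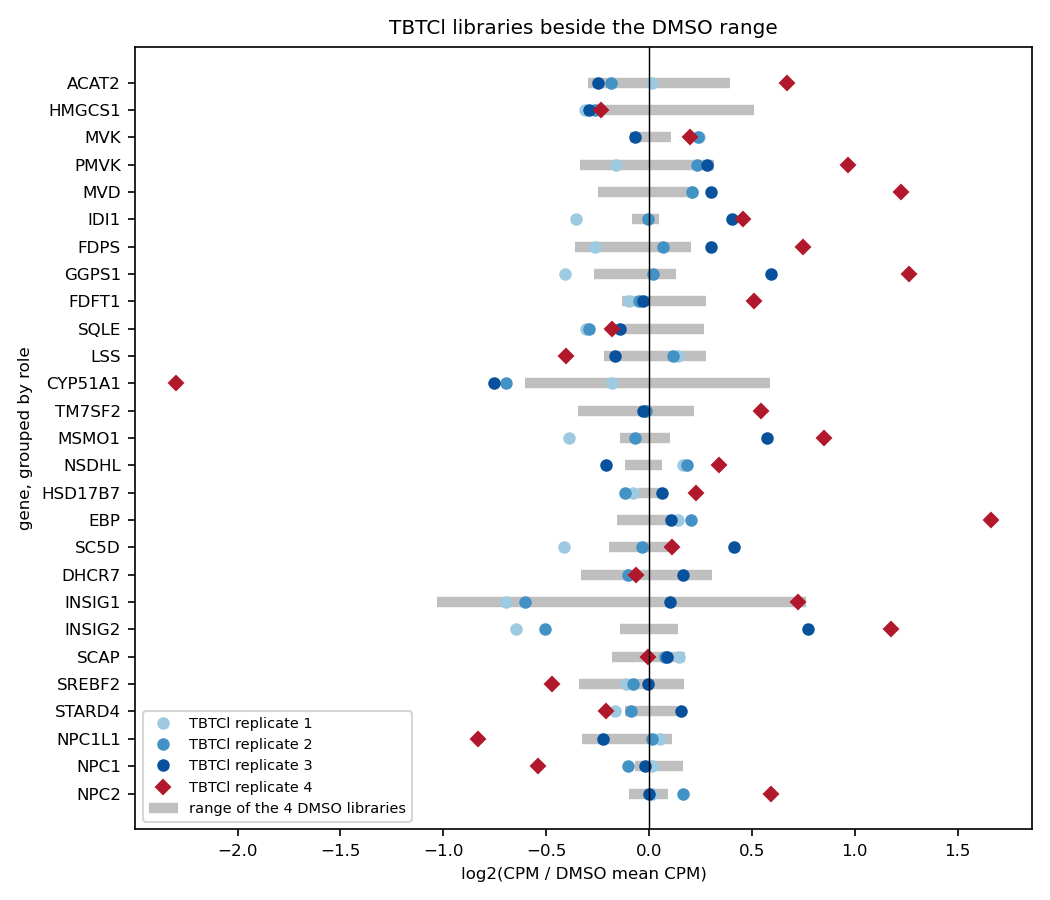
Level of the 27 genes in each TBTCl library as log2 of CPM over the DMSO mean, beside a grey bar for the range of the 4 DMSO libraries. Replicate 4 (diamonds) lies outside the DMSO range for 22 genes, among them EBP at 144 CPM and CYP51A1 at 7.34 CPM, and the other replicates do so for 9 to 11.

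Set directly against TCDD, 12 of the 27 genes were higher in TBTCl and 0 were lower by edgeR, against 5.58% higher and 7.26% lower among all tested genes. MVD stood at 462, 462, 492 and 933 CPM in TBTCl, against 268, 301, 262 and 286 CPM in TCDD (log2 fold change 1.07 ± 0.20 SE, adjusted p = 0.000375). MVK stood at 97.8, 97.4, 78.7 and 95 CPM in TBTCl, against 71.1, 63.6, 55.6 and 67.0 CPM in TCDD (0.52 ± 0.10, adjusted p = 0.000792). Neither of these genes overlapped between the groups. FDFT1 stood at 788, 816, 826 and 1200 CPM in TBTCl, against 475, 473, 561 and 588 CPM in TCDD (0.79 ± 0.16, adjusted p = 0.00126). STARD4 stood at 51.6, 54.6, 64.6 and 50.1 CPM in TBTCl, against 36.4, 28.4, 36.9 and 36.9 CPM in TCDD (0.67 ± 0.14, adjusted p = 0.00135). Squalene synthase and the sterol carrier were thus also fully separated. Every TBTCl library was above every TCDD library in 11 of the 27, against 5.01% of all tested genes, and below in 0, against 8.23%. The others called were IDI1, FDPS, TM7SF2, MSMO1, NSDHL, HSD17B7, EBP and INSIG1. MVD, FDFT1 and STARD4 kept their calls in all 14 alternatives. Without TBTCl replicate 4 MVD gave 0.77 (adjusted p = 0.00195), MVK 0.52 (0.00162), FDFT1 0.64 (0.00648), STARD4 0.73 (0.00125) and EBP 0.42 (0.0132), against 0.95 for EBP with it. FDPS (0.63, adjusted p = 0.0131) and NSDHL (0.39, adjusted p = 0.0334) also kept their calls without TBTCl replicate 4. IDI1, TM7SF2, MSMO1, HSD17B7 and INSIG1 lost their calls without it (adjusted p 0.0948 to 0.179). Of 7 hepatocyte markers 3 were higher in TBTCl than in TCDD, with all 7 estimates positive and a median of 0.70, and 5 of 9 tested fatty acid genes driven by SREBP-1 were higher (median 0.80). Their part in the result was not tested. The count of higher genes among the 27 was 7 without TBTCl replicate 4 or without TCDD replicate 1, and 3 in a fit to the 8 libraries compared. In that last fit 252 of 16947 tested genes were higher.

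Between BPA and TBTCl, 4 of the 27 genes were higher in BPA and 12 were lower by edgeR, against 16.7% higher and 18.1% lower among all tested genes. The share lower was above the background. HSD17B7 stood at 30.4, 39.9, 30.1 and 32.4 CPM in BPA, against 57.7, 56.2, 63.6 and 71.3 CPM in TBTCl (-0.91 ± 0.12, adjusted p = 2.04e-06). NPC1 stood at 243, 272, 255 and 223 CPM in BPA, against 145, 134, 142 and 98.9 CPM in TBTCl (0.93 ± 0.12, adjusted p = 3.7e-06). The sterol reductase was lower and the lysosomal exporter higher in every BPA library. IDI1 stood at 114, 160, 120 and 124 CPM in BPA, against 177, 226, 300 and 311 CPM in TBTCl (-0.97 ± 0.16, adjusted p = 6.81e-05). EBP stood at 26.4, 31.9, 29 and 31.5 CPM in BPA, against 50.2, 52.3, 49.0 and 144 CPM in TBTCl (-1.31 ± 0.23, adjusted p = 8.35e-05). All 4 of these genes kept their calls without TBTCl replicate 4. Without that library ACAT2 and MSMO1 lost theirs, and 10 genes were lower. They were MVK, MVD, IDI1, FDPS, FDFT1, LSS, TM7SF2, NSDHL, HSD17B7 and EBP, all of them also lower with it. EBP then gave -0.77 and MVD gave -0.60, against -0.92 with it. CYP51A1 was higher in BPA than in TBTCl (1.19, adjusted p = 0.00567), as were SREBF2 (0.47, adjusted p = 0.00404) and SCAP (0.29, adjusted p = 0.0182). Without TBTCl replicate 4 CYP51A1 gave 0.92, SREBF2 0.38 and SCAP 0.27, and all 3 were called. CYP51A1 kept its call in all 14 alternatives. SCAP lost its call under upper-quartile scaling, without a filter on low counts and in a fit to the 8 libraries compared (adjusted p up to 0.144). SREBF2 lost its call in the fit to the 8 libraries (adjusted p = 0.0571). Upper-quartile scaling gave 3 higher and 16 lower of the 27, and 2323 and 4553 of all tested genes. All 7 cycling-cell markers were lower in BPA than in TBTCl (median -1.48), as were 4 of 7 hepatocyte markers, with all 7 estimates negative (median -0.99), and their part was not tested. With the replicate block, which the deviations supported here, GGPS1 (adjusted p = 0.0296) and INSIG2 (0.00897) were also lower and INSIG1 (0.0454) was also higher in BPA. Over all tested genes the block gave 20.8% higher and 21.6% lower.

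CdCl2 gave no call among the 27 genes relative to water by edgeR, with 0 higher and 0 lower, against 0.0212% higher and 0% lower among all tested genes. DESeq2 called 0 as well. The estimates leaned to one side, with 21 of 27 negative and a median of -0.23, against 0 over all tested genes. An unadjusted p under 0.05 was found for 8 of the 27, against 4.99% of all tested genes. The smallest was that of HSD17B7, with a mean of 48.6 ± 7.09 CPM for CdCl2 libraries and 60.8 ± 5.55 CPM for water libraries (-0.32 ± 0.11, unadjusted p = 0.00871, adjusted p = 0.898). All 11 genes of the squalene and sterol steps had negative estimates, from -0.62 (CYP51A1) to -0.06 (SC5D). In MVK and NPC2 every CdCl2 library was below every water library, which held for 1.17% of all tested genes. The reverse held for none of the 27 and for 1.28% of all tested genes. MVK averaged 73.1 ± 3.54 CPM over CdCl2 libraries and 87.6 ± 5.66 CPM over water libraries (-0.26 ± 0.10, adjusted p = 0.898).

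The control genes overlapped between CdCl2 and water. INSIG1 stood at 0.138, 0.305, 0.192 and 0.213 CPM in CdCl2, against 0.186, 0.314, 0.262 and 0.461 CPM in water. INSIG2 stood at 78.1, 94.7, 126 and 140 CPM in CdCl2, against 63.5, 103, 120 and 149 CPM in water. SREBF2 stood at 263, 309, 310 and 287 CPM in CdCl2, against 261, 311, 290 and 361 CPM in water. Both INSIG2 and SREBF2 had all CdCl2 libraries inside the water range. NPC1L1 stood at 76.5, 82.7, 74.4 and 76.4 CPM in CdCl2, inside the water range of 62.9 to 84.8 CPM.

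PFOS gave no call among the 27 genes relative to DMSO by edgeR, with 0 higher and 0 lower, against 0% higher and 0.0159% lower among all tested genes. DESeq2 called 0 of the 27 too. None of the 27 had an unadjusted p under 0.05, against 5.53% of all tested genes, and in none did the groups separate (PFOS above in 1.15% and below in 3.79% of all tested genes). The smallest p was that of NPC1 (-0.23, unadjusted p = 0.0731). Their median was -0.07, and apart from INSIG1 their 95% intervals lay within -1.04 (CYP51A1) and 0.57 (INSIG2). INSIG1 stood at 0.173, 0.295, 0.136 and 0.459 CPM in PFOS, against 0.426, 0.175, 0.223 and 0.608 CPM in DMSO. INSIG2 stood at 43.3, 89.0, 129 and 121 CPM in PFOS, against 95.6, 95.5, 114 and 116 CPM in DMSO, with PFOS libraries on both sides. SREBF2 stood at 281, 350, 300 and 324 CPM in PFOS, against 242, 302, 345 and 338 CPM in DMSO. NPC1L1 stood at 79.0, 87.2, 74.2 and 77.7 CPM in PFOS, against 59.1, 78.6, 79.8 and 78.3 CPM in DMSO, and these groups overlapped. Between DMSO and water 0 genes of all tested were called by edgeR (0% higher, 0% lower), none of the 27 had an unadjusted p under 0.05, against 2.29% of all tested genes, and the median of the 27 was 0.

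Genes that act beside the 27 were read from lists of processing factors, branches, sterol transfer and fatty acid synthesis. Among factors of SREBP processing and sterol-regulated degradation, ERLIN1, an endoplasmic reticulum protein, rose by 0.69 under BPA (adjusted p = 0.000101). TMEM97, a sterol-related membrane protein chosen after its values were seen, fell under BPA (-0.77, adjusted p = 0.00244). Under TCDD SREBF1, the gene of the fatty acid regulator SREBP-1, averaged 98.3 ± 19.2 CPM in TCDD and 148 ± 25.5 CPM in DMSO (-0.59, adjusted p = 0.00388). Under TBTCl SREBF1 rose, at 312, 322, 238 and 239 CPM in TBTCl, against 127, 135, 145 and 184 CPM in DMSO (0.91, adjusted p = 0.00194). Without TBTCl replicate 4 it gave 0.98 (adjusted p = 0.00125).

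Of 11 genes of other routes from farnesyl diphosphate, 5 rose and 0 fell under BPA, against 17.3% and 17.6% of all tested genes. Among them DHDDS and NUS1, the subunits of the enzyme that starts dolichol, gave 0.41 (adjusted p = 0.00478) and 0.34 (adjusted p = 0.0102). Under TCDD 2 fell, against 2.8% of all tested genes, NUS1 (-0.33, adjusted p = 0.0356) and the dolichol kinase gene DOLK (-0.38, adjusted p = 0.0387). Of 14 tested genes of sterol esterification, transfer and lipoprotein receptors, 4 fell under BPA, against 17.6% of all tested genes. They included LIMA1 (-0.74, adjusted p = 0.000829) and SOAT2, which esterifies cholesterol (-0.73, adjusted p = 0.0076). The sterol transfer gene GRAMD1B fell to 0.125 ± 0.0537 CPM in BPA, against 0.513 ± 0.227 CPM in DMSO (-2.01, adjusted p = 0.00889). Its BPA libraries stood at 0.0619 to 0.177 CPM, where 3 counts corresponded to 0.0562 to 0.0929 CPM. The size of this change therefore rests on few counts. Under TCDD SOAT1 fell (-0.38, adjusted p = 0.0398), and the lipoprotein receptor gene SCARB1 (0.46, adjusted p = 0.0345) and GRAMD1B (1.98, adjusted p = 0.0047) rose, against 2.8% of all tested genes that fell and 6.45% that rose. Of 9 tested fatty acid genes driven by SREBP-1, 3 fell under TCDD, against 2.8% of all tested genes, FASN (-0.75, adjusted p = 0.0465), FADS1 (-0.79, adjusted p = 0.00412) and ACSL3 (-0.97, adjusted p = 0.0144). Under BPA ACSL3 rose (0.85, adjusted p = 0.0124) and FADS2 fell (-1.11, adjusted p = 0.0219). CdCl2 and PFOS gave 0 calls in these lists by edgeR.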

How the data were processed

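Raw counts per gene, whole numbers, were deposited for 28 libraries of HepG2 cells. Per the labels' protocols, poly(A) RNA was made into directional libraries and sequenced in pairs. Per the submitters' processing notes, fastp, STAR, HTSeq and DESeq2 were used with GRCh38. Versions, the annotation release and the use of strand are not given there, and counts without strand would mix overlapping genes. 1 truncated row of 63140 was left out. Depths were 28.9 M to 66 M counts.

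edgeR 4.0.16 (R 4.3.3) fitted 7 group means to all 28 libraries, with TMM scaling (factors 0.861 to 1.07), filterByExpr at a minimum count of 10 (18849 genes, 99.96% of counts kept), quasi-likelihood tests and Benjamini-Hochberg adjustment over all tested genes. A gene was called at an adjusted p under 0.05. The common biological coefficient of variation was 22%. SE was the absolute log2 fold change over the square root of F, and intervals are 95% with 21 residual degrees of freedom before shrinkage. The script was tested on simulated data. Lengths and overlaps came from GENCODE 29.

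No 2 libraries agreed within sampling noise (chi-square per gene 24.8 to 334). Deviations of libraries with the same replicate number were correlated above 0.1 in all 4 pairs for CdCl2 and water (0.123 to 0.54), PFOS and DMSO (0.425 to 0.593), BPA and DMSO (0.173 to 0.269), TBTCl and DMSO (0.249 to 0.528), DMSO and water (0.181 to 0.627), and BPA and TBTCl (0.146 to 0.324), so the numbers were read as pairs there. In the comparisons with TCDD, 1 of 4 pairs (DMSO), 3 of 4 (BPA) and 1 of 4 (TBTCl) passed 0.1, so the numbers were not read as pairs there. The labels do not say that a number marks 1 experiment. The main fit and its p values used no pairing in any comparison. Pairing entered only the replicate block, an alternative with a single set of replicate effects for all 28 libraries, TCDD included.

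All 27 genes are accounted for. Values by library are given for INSIG1, INSIG2, SREBF2 and NPC1L1, and for called genes among the 4 smallest p of a comparison. From other lists, at most 3 called genes per comparison are named, by smallest p. Some results of these lists are not reported here. Members and lists were chosen with earlier results of these data known.

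The alternatives were DESeq2 1.42.0, other scalings, no filter, a fit to the 8 libraries compared, water in place of DMSO, a replicate block, and leaving out each library.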

Additional observations from a re-analysis of the deposited data

Results flagged for a closer look

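In 15 of 189 combinations of gene and group, 1 library lay so far from the other 3 that its gap, divided by the group's range, passed Dixon's 95% critical value for 4 samples. Chance flags about 1 in 20 groups. TBTCl replicate 4 held 4 of them, MVD at 933 CPM, FDFT1 at 1200 CPM, TM7SF2 at 174 CPM and EBP at 144 CPM. In TBTCl replicate 3 MVK was low at 78.7 CPM and DHCR7 was high at 598 CPM. DMSO replicate 4 was high for HMGCS1 at 763 CPM and FDFT1 at 1020 CPM, both of which TCDD lowered.

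The BPA libraries held 2 flagged values, a low SREBF2 at 334 CPM in replicate 1 and a high STARD4 at 60.9 CPM in replicate 2. In TCDD replicate 2 STARD4 was low at 28.4 CPM. SQLE was high at 423 CPM in PFOS replicate 4, and NPC2 was low at 58.7 CPM in CdCl2 replicate 4. Within DMSO, NPC1L1 was low at 59.1 CPM in replicate 1 and NPC1 was high at 161 CPM in replicate 3. The causes were not tested.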

How the results depend on the processing

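The 58 called results of the list were recomputed to 830 values. Of these, 703 kept their call and direction, 127 lost the call and 0 reversed. Relative to DMSO, the counts of higher and lower genes with DESeq2 were 3 and 11 in BPA and 0 and 8 in TCDD. Over all 41787 genes with a p value, DESeq2 gave 3376 higher and 3594 lower in BPA, and 1380 and 724 in TCDD. Without a filter on low counts 1 gene rose in BPA, and with water in place of DMSO 1 rose in TCDD. Over all genes, 2442 of 41787 rose in the former fit and 1138 of 18849 in the latter. In a fit to the 8 libraries compared, 2 genes were higher in BPA than in TBTCl and 3 in TBTCl than in TCDD. Of all tested genes, 1680 of 16320 and 252 of 16947 were higher there. Upper-quartile and library-size scaling left 2 and 3 genes higher in BPA than in TCDD, and 2434 and 2582 of all 18849 tested genes. Leaving out each library in turn gave 7 to 13 lower genes and 2 to 4 higher genes in BPA against DMSO, 2 to 6 lower in TCDD against DMSO, 4 to 7 higher and 1 to 3 lower in BPA against TCDD, 4 to 5 higher and 10 to 14 lower in BPA against TBTCl, and 7 to 13 higher in TBTCl against TCDD. The other comparisons gave 0. Calls over all tested genes also changed between these fits. In TCDD against DMSO 298 of all tested genes fell without TCDD replicate 2 and 598 without TCDD replicate 1. In the comparisons with TCDD, not every pair of numbers was correlated above 0.1. There the replicate block gave 11 lower genes in TCDD against DMSO, where 5.49% of all tested genes were lower. It gave 7 higher and 5 lower in BPA against TCDD (21.5% and 24.6% of all tested genes). In TBTCl against TCDD it gave 15 higher (8.76% of all tested genes). In the paired comparisons the block gave 4 higher and 13 lower in BPA against DMSO, 5 higher and 14 lower in BPA against TBTCl, and no call elsewhere. The cause of a lost call was not tested, also in fits with fewer libraries or genes. INSIG1 rests on 4 to 42 counts per library.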
